A study of Mus musculus with 24 samples.

Results

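Hesx1, Six3, Rax, Lhx2, Lhx5 and Pax6, transcription factors of the anterior neural plate and forebrain, were followed across mouse pluripotent cell lines and early embryonic tissue. They were taken from the array by gene name, through the RefSeq accession printed for each probe, and made up 6 of 20616 named genes with a usable probe. Hesx1, Six3, Rax, Lhx2 and Lhx5 each had 1 probe and Pax6 had 2, which gave 7 of 55681 distinct probes. Their expression was read on 24 single-colour arrays, with 12 groups in duplicate. EpiSCs, the pluripotent epiblast stem cells derived after implantation, were represented by 3 lines established in the presence of a Wnt inhibitor (129Ba1, 129Ba2 and BNa17) and by 2 lines established with the original protocol (Wt1, which here is a line and not the gene, and 129C1). Line 129C1 was also profiled after treatment with IWP2, an inhibitor of Porcupine that blocks secretion of Wnt ligands. Mouse embryonic stem cells (mESCs) were line J1 with 2i, a pair of inhibitors of Mek and Gsk3, and lines J1 and R1 without it. Embryonic material was epiblast at E5.5 and at E6.5 and embryonic ectoderm at E7.5, isolated by manual dissection. All stem cells had grown on feeder cells, which were removed before RNA extraction. The labels do not say whether the 2 arrays of a group came from separate cultures or dissections. In fits on single arrays, p-values therefore describe the spread between arrays, which may be technical. In fits on line means they describe the spread between lines. Where lines were set against embryonic stages, the spread of lines and that of embryo arrays were pooled.

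The forebrain arises from the anterior neural plate, which forms where Wnt, Nodal and BMP signals are kept low by antagonists secreted from the anterior visceral endoderm and later from anterior midline tissue. Hesx1 is a homeodomain repressor required for forebrain and pituitary development, and in the mouse embryo it is used first in anterior endoderm and then in the overlying anterior neural plate. Six3 and Rax act in the eye field and rostral forebrain, Six3 partly as a repressor of Wnt genes, and Rax as a factor without which the eye does not form. Lhx2 and Lhx5 are LIM homeodomain factors of the eye, cortex and diencephalon, and Pax6 is a paired-box factor of the eye, cortex and spinal cord.

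Levels are log2 of the scanner's processed signal minus log2 of the 75th percentile of the same array, so that 0 is the level of a probe at that percentile. A probe counts as detected where the scanner software marked it well above background, and a group with no such array has only a bound. Such a bound, given as "at least", allows for the detection limit but not for the spread between arrays or lines. That 75th percentile was 69.3 to 253 signal units, 36.7% to 53.2% of probes were well above background, and replicate arrays correlated at r = 0.966 to 0.989. None of the member values was saturated or marked as an outlier. The 12 groups lay on 6 slides scanned on 4 days, with treated 129C1 beside Wt1 on 1 slide and untreated 129C1 beside the 3 Wnt-inhibitor lines on another. All 9 feeder fibroblast markers were well above background in every line, with a summed scaled signal of 73.7 to 365 in untreated EpiSC lines and 6.15 to 15.3 in embryonic tissue. In such bulk RNA, fewer cells of a type and less RNA per cell cannot be told apart.

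The sequence immediately upstream of the start is shown for Hesx1 and Lhx2, which moved in opposite directions under IWP2, and for Six3. Like Hesx1, Six3 had its highest group mean at E7.5. RefSeq promoter windows of the GRCm38.p6 build were at hand for 4 of the 6 genes, as 6 windows, and each sequence is the 250 bases before the annotated start on the plus strand. The Hesx1 window is chr14:27000112-27000361, the Six3 window chr17:85620584-85620833 and the Lhx2 window chr2:38339031-38339280.
Hesx1: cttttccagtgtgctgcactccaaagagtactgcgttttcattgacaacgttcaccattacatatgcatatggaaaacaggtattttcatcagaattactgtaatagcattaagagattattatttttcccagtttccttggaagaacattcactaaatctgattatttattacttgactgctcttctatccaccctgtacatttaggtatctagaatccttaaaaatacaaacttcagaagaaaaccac
Six3: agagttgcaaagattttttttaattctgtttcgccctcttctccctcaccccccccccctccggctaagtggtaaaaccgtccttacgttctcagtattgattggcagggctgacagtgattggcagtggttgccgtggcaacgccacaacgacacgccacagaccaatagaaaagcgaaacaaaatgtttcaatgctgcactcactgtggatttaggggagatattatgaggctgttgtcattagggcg
Lhx2: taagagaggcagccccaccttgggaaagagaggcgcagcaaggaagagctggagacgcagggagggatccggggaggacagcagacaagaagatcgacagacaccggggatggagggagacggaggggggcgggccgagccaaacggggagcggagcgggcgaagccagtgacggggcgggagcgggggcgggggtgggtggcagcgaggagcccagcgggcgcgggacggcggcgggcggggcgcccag
GC made up 34.0% of the Hesx1 window, 48.8% of the Six3 window and 72.8% of the Lhx2 window, against a median of 52.4% over 32851 windows of all genes; 3.9% of those windows had less GC than Hesx1. Both strands were searched for the TCF/LEF core CTTTGA, the Otx and bicoid-class core TAATCC, the homeodomain core TAATTA and the octamer ATGCAAAT, which occurred in 13.8%, 6.3%, 4.8% and 1.6% of all windows. None of the 6 member windows held any of them, hence no letter is in capitals, and this says only that these letters are not in these windows.

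**Figure D1:**
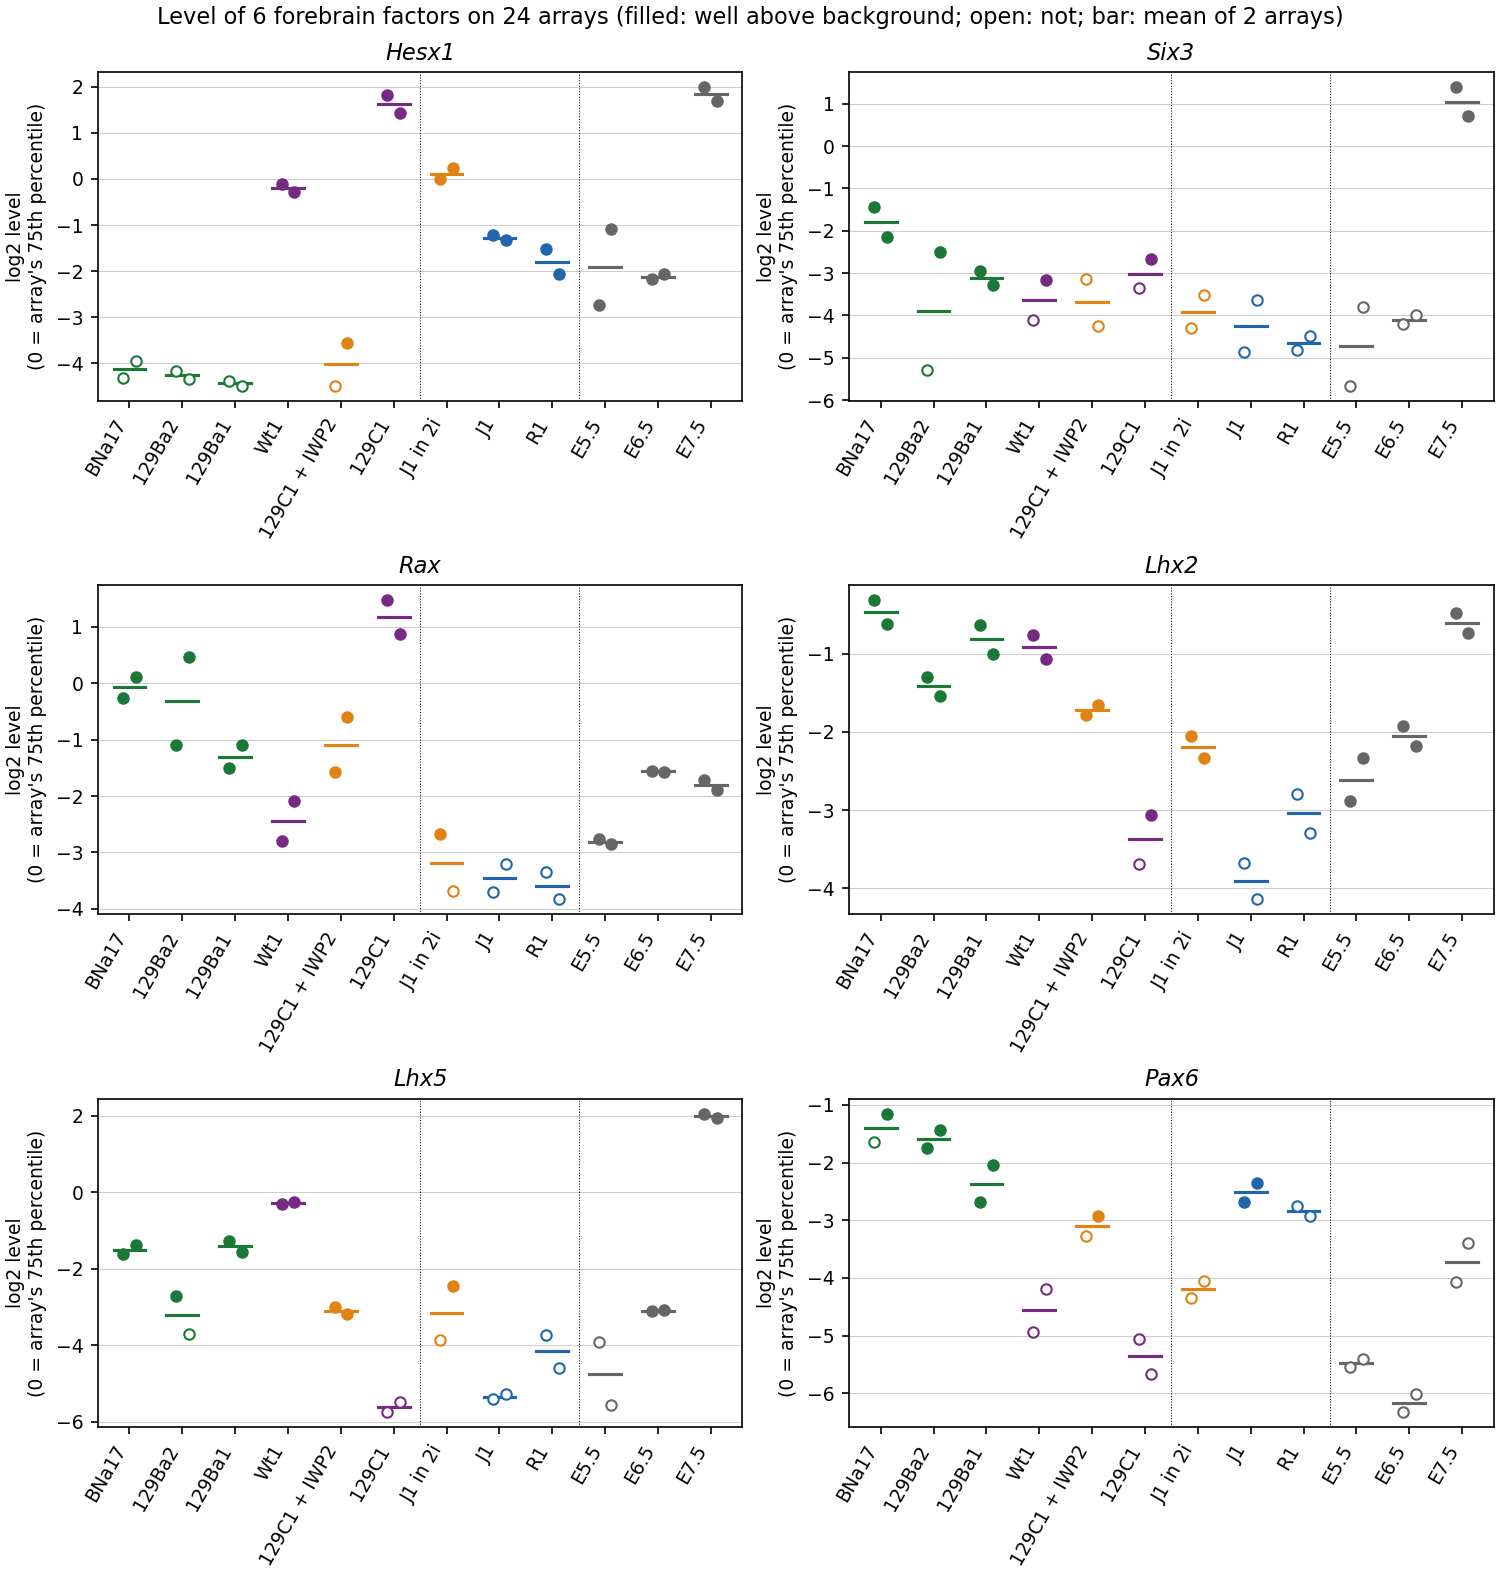
Scaled log2 level of each gene (y axis, 0 = 75th percentile of the array) on the 2 arrays of each of 12 groups (x axis: 6 EpiSC groups, 3 mESC groups and 3 embryonic stages, separated by dotted lines). Green marks Wnt-inhibitor lines, purple original-protocol lines, orange IWP2 or 2i treatment, blue mESCs without 2i and grey embryonic tissue; filled points are well above background and bars are means. Hesx1 is low in every EpiSC group exposed to a Wnt inhibitor, while Six3 stands out at E7.5 alone.

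The genes differed in which group held their highest level. By group mean, Hesx1, Six3 and Lhx5 were highest in E7.5 ectoderm, Rax in untreated 129C1, and Lhx2 and Pax6 in BNa17. The arrays of the top group overlapped those of the next for Hesx1 (untreated 129C1), Lhx2 (E7.5 ectoderm) and Pax6 (129Ba2). For these genes the top group does not differ from the next beyond the spread. Group means spanned 6.27 log2 units for Hesx1, 7.62 for Lhx5, 5.78 for Six3, 4.76 for Rax, 4.78 for Pax6 and 3.44 for Lhx2. Ordering the 12 groups by mean gives 11 neighbouring pairs per gene, and the 2 arrays of neighbours did not overlap in 6 pairs for Hesx1, 5 for Lhx5, 4 for Rax, 3 for Lhx2, 2 for Six3 and 6 for Pax6, groups below detection included. The same count was not made for other genes, so these counts show nothing particular to the members.

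Detection was broad for Rax and Lhx2 and narrow for Six3 and Pax6. Rax was well above background on 19 of 24 arrays and so was Lhx2; Hesx1 reached it on 17, Lhx5 on 14, Six3 on 9 and the representing probe of Pax6 on 8. Rax and Lhx2 were detected on both arrays in 9 of 12 groups each, whereas Six3 was detected on both arrays only in BNa17, 129Ba1 and E7.5 ectoderm. The other probe of Pax6 was well above background on 0 of 24 arrays, so every Pax6 value here rests on a single probe (A_55_P2022946, printed as 2 spots).

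The effect of blocking Wnt secretion was read from 129C1 with and without IWP2. Hesx1 and Rax fell, while Lhx2, Lhx5 and Pax6 rose, so the forebrain factors did not move together. Hesx1 measured -4.49 and -3.55 on the 2 treated arrays, against 1.83 and 1.42 on the 2 untreated arrays. Only 1 of the 2 treated arrays was well above background, and the groups were far apart. The fitted difference was -5.64 ± 0.40 (log2, SE; limma, adjusted p = 9.33e-07), with 1 treated value below detection. Rax measured -1.58 and -0.60 in treated cells, against 1.47 and 0.87 in untreated cells, and remained detected on all 4 arrays. Its difference was -2.26 ± 0.47 (adjusted p = 0.00894).

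Lhx2 measured -1.78 and -1.66 in treated 129C1, against -3.69 and -3.06 in untreated 129C1, where 1 of 2 arrays was well above background. The groups did not overlap and the difference was 1.66 ± 0.27 (adjusted p = 0.00128). Lhx5 measured -3.0 and -3.18 in treated cells, against -5.75 and -5.49 in untreated cells. Its untreated level was below detection, so the rise was at least 1.76-fold (adjusted p = 0.00548). Pax6 was well above background on 1 of 2 treated arrays, at -2.93, the other standing at -3.27, and on neither untreated array. It rose at least 1.74-fold (adjusted p = 3.97e-04). For Lhx5 and Pax6 the call uses fitted values below detection, and the bound alone is under 2-fold. Six3 measured -3.14 and -4.24 in treated cells, against -3.35 and -2.68 in untreated cells, overlapped between groups and was not called (-0.67 ± 0.77, adjusted p = 0.747). Thus 5 of the 6 genes were called, where 585 of 15088 genes (3.88%) were called, 1.39% higher and 2.49% lower.

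**Figure D2:**
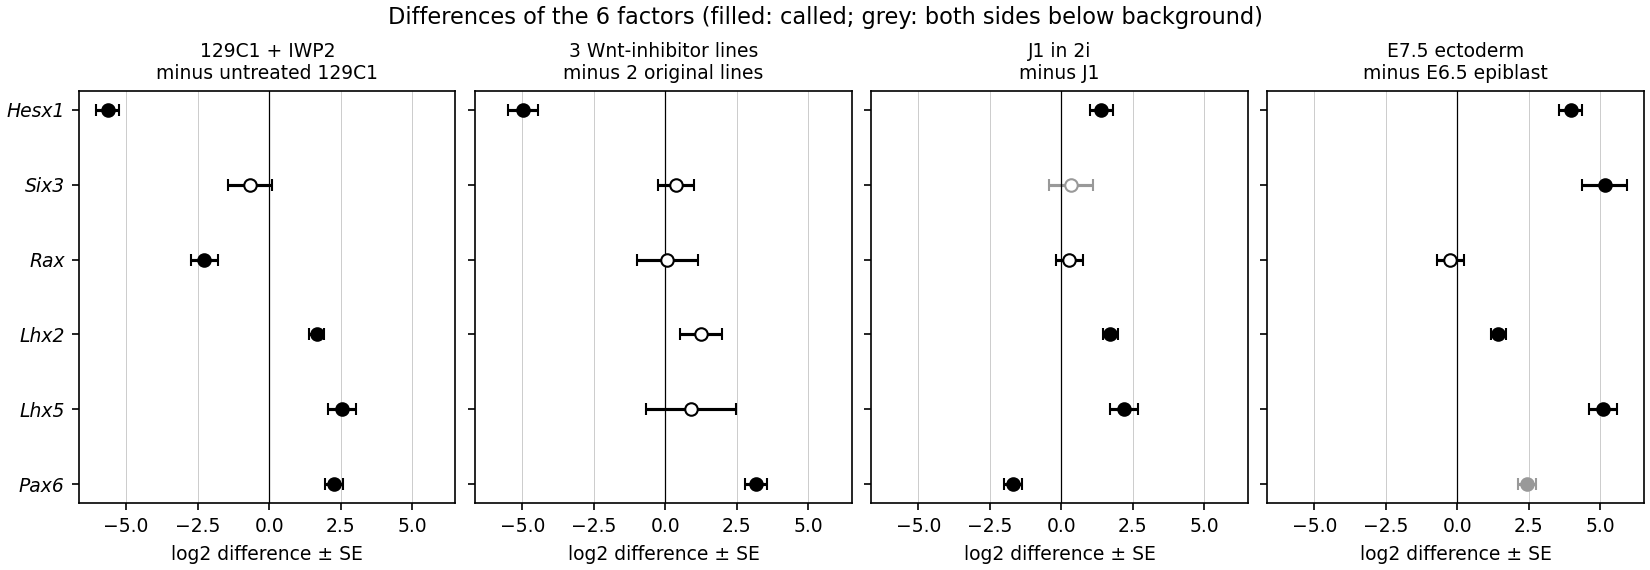
Log2 difference (x axis, ± SE from limma) of each gene (y axis) in 4 comparisons, with the treated, Wnt-inhibitor or later group minus its counterpart. Filled points were called at adjusted p under 0.05 and at least 2-fold, open points were not, and grey points had no array well above background on either side. Hesx1 lies left of 0 in both Wnt-inhibitor panels and right of 0 in 2i and at E7.5, where Pax6 is grey.

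Endoderm markers fell beside Hesx1. All 11 of 11 fell with IWP2, with a median log2 difference of -5.97 against -0.02 over all genes tested. Their summed scaled signal was 69.1 to 77.5 in treated cells, against 410 to 505 in untreated cells. The list includes Otx2, which is counted in the forebrain list as well. Its log2 level was 5.24 and 5.65 in treated cells, against 6.58 and 6.39 in untreated cells. No endoderm sum given here therefore measures endoderm alone. Cer1, a secreted Wnt, Nodal and BMP antagonist of anterior endoderm, and Foxa2 were well above background on neither treated array, while Hhex was on 1. Of 7 streak and mesoderm markers 3 fell, and 1 of 9 feeder markers rose. The part of these markers in the differences was not tested. Among 18 tested of 28 other forebrain genes, 2 rose and 2 fell, with a median of 0.27. Sp8 rose by 2.26 ± 0.32 and Pou3f2 at least 2.21-fold, while Otx2, needed for the whole anterior head, fell by 1.04 ± 0.20 on the log2 scale and Nr2e1 fell at least 1.83-fold. Genes of the midbrain and hindbrain gave 4 higher and 2 lower of 13 tested. The summed signal of that list was lower in treated cells, at 6.21 to 7.62 against 20.7 to 23.5 in untreated cells. Gbx2, which positions the midbrain-hindbrain border, rose at least 7.49-fold (adjusted p = 1.96e-05). In the neural progenitor list 3 of 12 rose, among them Sox1 (2.76 ± 0.26).

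With normexp background correction, which shrinks differences between dim probes, Hesx1 and Rax stayed called while Lhx2 (0.52), Lhx5 (0.40) and Pax6 (0.43) were not. The call for Rax was lost when the fit held only these 4 arrays (adjusted p = 0.0542), without treated replicate 1 (0.0876) or without untreated replicate 1 (0.104), and that for Lhx5 without untreated replicate 1 (0.0552). Slide and treatment cannot be told apart: against Wt1, which shared the slide with treated 129C1 but is another line, the differences of treated 129C1 were -3.82 for Hesx1 and 1.46 for Pax6, whereas Rax stood at 1.35, Lhx2 at -0.81 and Lhx5 at -2.81.

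The Wnt-inhibitor lines were compared with the original-protocol lines as 3 line means against 2. Hesx1 was lower and Pax6 higher in the Wnt-inhibitor lines, and the other 4 genes were not called. The 6 arrays of the Wnt-inhibitor lines gave Hesx1 levels of -4.48 to -3.94 with a median of -4.32, none of them well above background, against -0.11 and -0.28 in Wt1 and 1.83 and 1.42 in 129C1. The lines of each kind were apart on every array. Hesx1 was at least 18.7-fold lower in the Wnt-inhibitor lines by the detection limit (-4.98 ± 0.53 as fitted, adjusted p = 0.0212). The interval of the fit was -6.31 to -3.65, which includes that bound of -4.23. Pax6 measured -2.69 and -2.05 in 129Ba1, -1.75 and -1.43 in 129Ba2, and -1.64 and -1.15 in BNa17, against -4.93 and -4.19 in Wt1 and -5.05 and -5.67 in 129C1. It was well above background on 5 of 6 Wnt-inhibitor arrays and on 0 of 4 others, and was at least 3.83-fold higher (3.18 ± 0.40 as fitted, adjusted p = 0.0322).

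No difference was called for Rax, Lhx2, Lhx5 or Six3, and the intervals were wide. Rax differed by 0.07 ± 1.06 (95% interval -2.58 to 2.72), Lhx2 by 1.24 ± 0.74 (-0.61 to 3.10) and Lhx5 by 0.91 ± 1.57 (-3.0 to 4.82). Within the Wnt-inhibitor lines, Lhx5 was -1.28 and -1.55 in 129Ba1 and -1.61 and -1.38 in BNa17, but -2.70 and -3.69 in 129Ba2, where only 1 array was well above background. Six3 was most evident in BNa17, at -1.43 and -2.16, and the 2 arrays of 129Ba2 lay at -5.29 and -2.51, far apart. The 2 called genes stood where 222 of 14038 genes (1.58%) were called, 0.541% higher and 1.04% lower.

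Of the endoderm markers, 9 of 11 were lower in the Wnt-inhibitor lines, and Cer1 was well above background on 0 of their 6 arrays. Summed endoderm signal, Otx2 included, was 95 to 299 in the Wnt-inhibitor lines, against 158 to 505 in the original-protocol lines. These sums overlapped although fewer of the 11 markers were well above background in the Wnt-inhibitor lines. Per array the number was 3 to 6 in 129Ba1, 3 in 129Ba2 and 2 to 4 in BNa17, against 11 in Wt1 and 129C1. Of the markers tested, 4 of 6 organizer and 1 of 6 streak and mesoderm markers were lower too. The part of these cells in the Hesx1 difference was not tested. No gene of the other forebrain list (16 tested), the midbrain and hindbrain list (12 tested) or the neural progenitor list (12 tested) was called by limma, and 3, 2 and 1 of them had an unadjusted p below 0.05. Pax6 was not called with normexp (0.77) or with the mean of both its probes (1.80). Hesx1 lost its call without line 129Ba1 (adjusted p = 0.0776), 129Ba2 (0.0973) or BNa17 (0.107), and Pax6 without 129Ba2 (0.142), BNa17 (0.133), Wt1 replicate 1 (0.0636) or 129Ba1 replicate 2 (0.0661). On the slide that held these lines with 129C1 but not Wt1, the differences from 129C1 were -5.89 for Hesx1, -1.74 for Rax, 2.48 for Lhx2, 3.58 for Lhx5 and 3.58 for Pax6, each called. That fit used single arrays, so its calls rest on the spread between arrays and not between lines. In it 11.2% of all genes tested were called.

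The 2 original-protocol lines differed from each other in 4 of the 6 genes. Lhx5 and Lhx2 were higher in Wt1, and Hesx1 and Rax higher in 129C1, where 1593 of 15088 genes (10.6%) were called, 5.74% higher and 4.82% lower in Wt1. Lhx5 measured -0.31 and -0.24 in Wt1, against -5.75 and -5.49 in 129C1, which left 129C1 below detection. Its difference was at least 12.4-fold (adjusted p = 2.76e-06). Rax measured -2.80 and -2.09 in Wt1, against 1.47 and 0.87 in 129C1, a difference of -3.62 ± 0.47 (adjusted p = 7.21e-05). Lhx2 was -0.76 and -1.07 in Wt1, against -3.69 and -3.06 in 129C1, and differed by 2.47 ± 0.27 (adjusted p = 1.26e-05). Line 129C1 thereby had the highest Rax mean of the 12 groups and no detected Lhx5.

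Hesx1 was lower in Wt1 by a smaller margin, -0.11 and -0.28 against 1.83 and 1.42 in 129C1 (-1.82 ± 0.40, adjusted p = 0.00542). That call was lost without 129C1 replicate 1 (adjusted p = 0.0558), and with normexp the Lhx2 difference shrank to 0.88, under 2-fold. The midbrain and hindbrain list was higher in Wt1 for 10 of 13 tested genes, with Gbx2 at least 20.4-fold higher. In the other forebrain list 5 of 18 were higher in Wt1, among them Six6 (2.98 ± 0.67) and Irx1 (2.80 ± 0.33), and 2 were lower. All 11 endoderm markers, Otx2 included, were well above background in both lines, with sums of 158 to 216 in Wt1 and 410 to 505 in 129C1. Feeder markers were higher in Wt1 for 6 of 9 (summed signal 172 to 240 in Wt1, against 73.7 to 85.5 in 129C1), and streak and mesoderm markers for 4 of 7 (55.9 to 61.5 in Wt1, against 24.2 to 27.8 in 129C1). The part of these markers in the differences was not tested. The lines lay on different slides, so line and slide cannot be told apart.

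**Figure D3:**
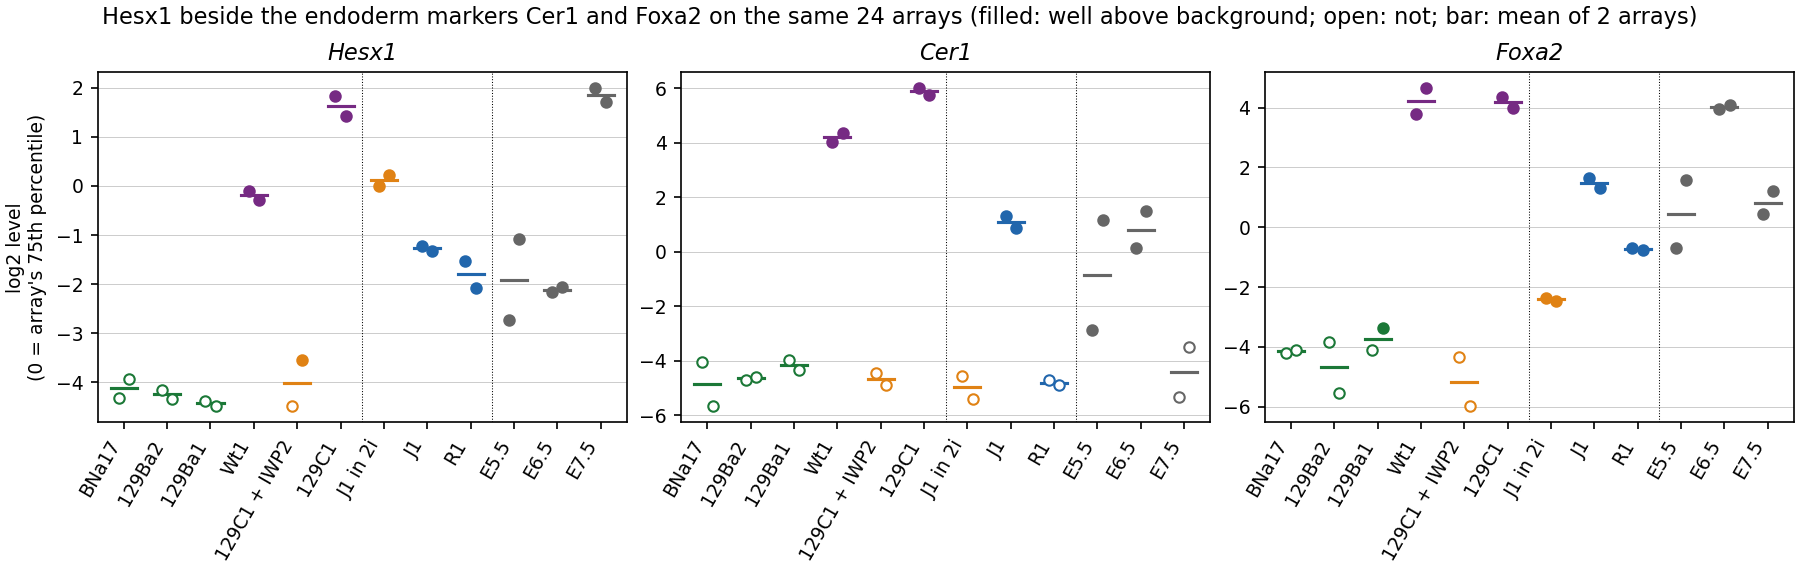
Scaled log2 level (y axis, a separate scale for each gene) of Hesx1 and of the endoderm markers Cer1 and Foxa2 on the 2 arrays of each group (x axis), with colours and symbols as in the plot of all 6 genes. In EpiSC groups the 3 genes are high in Wt1 and 129C1 and near background elsewhere, while at E7.5 and in 2i Hesx1 is detected and Cer1 is not.

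Hesx1 was also detected where Cer1 was not. In E7.5 ectoderm Hesx1 was at 1.99 and 1.70 while Cer1 was below detection on both arrays, and in J1 with 2i Hesx1 was at 0.00 and 0.23 with Cer1 below detection. R1 likewise had Hesx1 without Cer1. Foxa2 and Hhex, an anterior endoderm factor, were well above background on both arrays at E7.5, in 2i and in R1. At E5.5 the 2 arrays differed, with Hesx1 at -2.74 and -1.09, Cer1 at -2.88 and 1.16 and Foxa2 at -0.68 and 1.58, each higher on the second array. Summed visceral endoderm signal was 7.14 on 1 of these arrays and 81.6 on the other, with all 8 markers well above background on both. The part of visceral endoderm in the E5.5 levels was not tested.

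Primed EpiSC lines were set against naive mESC lines as 5 line means against 2. Rax was higher in EpiSCs, where it was well above background on 10 of 10 arrays, against 0 of 4 mESC arrays. Its levels were -2.80 to 1.47 over the EpiSC arrays, with a median of -0.68, against -3.71 and -3.21 in J1 and -3.35 and -3.83 in R1. Rax was at least 5.66-fold higher by the detection limit (2.94 ± 0.85 as fitted, adjusted p = 0.0320). The interval of the fit, 0.94 to 4.93 on the log2 scale, reached below that bound of 2.50. It was the only member called, where 3616 of 14434 genes (25.1%) were called, 12.9% higher and 12.1% lower. Lhx2 was well above background on 9 of 10 EpiSC and 0 of 4 mESC arrays and missed the threshold (2.08 ± 0.75, adjusted p = 0.0656), as did Six3 (7 of 10 against 0 of 4, adjusted p = 0.0806).

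Hesx1 was detected on 4 of 4 mESC arrays, at -1.22 and -1.32 in J1 and -1.52 and -2.07 in R1, which lay between the Wnt-inhibitor and the original-protocol EpiSC lines. Pax6 was well above background on both J1 arrays (-2.68 and -2.35) and on neither R1 array. In the other forebrain list 8 of 16 genes were higher in EpiSCs and none lower, among them Sp8 (2.89 ± 0.84) and Sfrp1 (2.53 ± 0.39). Without line 129C1, Lhx2 and Lhx5 were called as well, as was Lhx2 without 129C1 replicate 1 and Six3 without BNa17, 129Ba2 replicate 1 or J1 replicate 2, whereas Rax lost its call without 129Ba2 (adjusted p = 0.0629), BNa17 (0.0626), J1 (0.143), R1 (0.154) or Wt1 replicate 2 (0.0513). All EpiSC arrays were scanned on another day and on other slides than the mESC arrays, so cell kind and scan day cannot be told apart. With slide as a random block Rax was called (adjusted p = 0.0410). No slide held both kinds of cell, so that setting cannot separate slide or scan day from cell kind. Rax was not called with quantile normalization (adjusted p = 0.0514) or normexp (0.0957).

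In J1 cells, Hesx1 and Lhx2 were higher and Pax6 lower in 2i, while Lhx5 was called higher from values mostly below detection. Hesx1 measured 0.00 and 0.23 in 2i, against -1.22 and -1.32 without it, a difference of 1.39 ± 0.40 (adjusted p = 0.0210). Lhx2 measured -2.05 and -2.34 in 2i, against -3.68 and -4.14 without it, and rose at least 2.03-fold (adjusted p = 4.63e-04). Lhx5 reached detection on 1 of 2 arrays in 2i, at -2.44, the other standing at -3.86, and on neither without it. The bound on its difference was 1.05-fold, so the call (adjusted p = 0.00524) rests on fitted values below background. Pax6 fell below detection in 2i, at -4.34 and -4.05, against -2.68 and -2.35 without it, at least 1.85-fold lower (adjusted p = 0.00161), a bound under 2-fold.

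These 4 called genes stood where 1968 of 15088 genes (13.0%) were called, 6.04% higher and 7.0% lower. Of 18 other forebrain genes tested, 5 fell, including Pou3f1 (-3.32 ± 0.26) and Otx2 (-1.52 ± 0.20), and 1 rose, Zic1 (1.22 ± 0.21). Endoderm markers fell for 4 of 11, Cer1 at least 22.4-fold, as did 4 of 7 streak and mesoderm and 1 of 9 feeder markers, and their part in the differences was not tested. With normexp no member was called, Hesx1 standing at 0.81. Hesx1 lost its call without any one of the 4 arrays (adjusted p = 0.0627 to 0.112) and with quantile normalization (0.0732), and Lhx5 without 2i replicate 2 (0.0790). The 2 groups lay on different slides scanned on different days, so 2i and slide cannot be told apart.

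Through the 3 embryonic stages, Hesx1, Six3 and Lhx5 were far higher in E7.5 ectoderm than before, Lhx2 was moderately higher, and Rax was not. Hesx1 measured -2.74 and -1.09 at E5.5, -2.17 and -2.06 at E6.5 and 1.99 and 1.70 at E7.5. E7.5 exceeded E6.5 by 3.96 ± 0.40 (adjusted p = 9.31e-06), while E6.5 and E5.5 overlapped (-0.20 ± 0.40, adjusted p = 0.841). Six3 measured -5.67 and -3.80 at E5.5, -4.20 and -4.0 at E6.5 and 1.39 and 0.70 at E7.5. It was not detected on any of the 4 epiblast arrays. E7.5 exceeded E6.5 by 5.14 ± 0.77 as fitted (35.4-fold, adjusted p = 2.71e-04). The bound was the same 35.4-fold, since both E6.5 values lay above the lowest signal well above background on their arrays.

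Lhx5 measured -3.92 and -5.57 at E5.5, -3.11 and -3.07 at E6.5 and 2.06 and 1.94 at E7.5, with the E5.5 arrays below detection. E7.5 exceeded E6.5 by 5.09 ± 0.49 (34.2-fold, adjusted p = 5.57e-06). E6.5 exceeded E5.5 at least 1.62-fold (adjusted p = 0.0484), a bound under 2-fold, and that call was lost with normexp, quantile normalization, the replicate block, the mean of a gene's probes, dim probes left in or only these 4 arrays, and without E6.5 replicate 1 (0.187), E6.5 replicate 2 (0.194) or E5.5 replicate 2 (0.421). Lhx2 measured -2.89 and -2.33 at E5.5, -1.92 and -2.18 at E6.5 and -0.48 and -0.74 at E7.5. It was higher at E7.5 than at E6.5 by 1.44 ± 0.27 (adjusted p = 0.00131), a difference of 0.81 with normexp, which is under 2-fold. Rax measured -2.77 and -2.85 at E5.5, -1.56 and -1.57 at E6.5 and -1.72 and -1.90 at E7.5. Neither step was called for Rax (E6.5 minus E5.5 1.25 ± 0.47, adjusted p = 0.121; E7.5 minus E6.5 -0.25 ± 0.47, adjusted p = 0.730), although the first was with only its 4 arrays in the fit (0.0211).

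Pax6 was not well above background on any of the 6 embryonic arrays, so its stages have no order, although the fit called it between E7.5 and E6.5. Counting it, 5 of 6 genes were called between E7.5 and E6.5, where 2243 of 15088 genes (14.9%) were called, 6.30% higher and 8.56% lower. Lhx5 was the 1 member called between E6.5 and E5.5, where 734 of 15088 genes (4.86%) were called, 2.70% higher and 2.16% lower.

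Of the midbrain and hindbrain list at E7.5, 7 of 13 tested were higher than at E6.5 and 2 lower, with Gbx2 higher by 6.74 ± 0.42. The neural progenitor list had 7 of 12 higher, among them Sox1 (2.48 ± 0.26). The other forebrain list was split, with 6 of 18 higher and 4 lower, and 2 of these 10 were below detection on both sides. Irx1 rose by 4.25 ± 0.33 and Dlx5 by 3.17 ± 0.49, while Vax1 fell at least 5.96-fold and Pou3f1 fell by 1.85 on the log2 scale. Otx2 stayed high and was not called (-0.46, adjusted p = 0.101). Endoderm markers fell for 7 of 11, with a sum of 80.6 to 83.8 at E7.5 against 151 to 163 at E6.5. That sum includes Otx2, at a log2 level of 5.86 and 5.74 at E7.5 and 6.37 and 6.16 at E6.5. All 8 visceral endoderm and 4 of 7 streak and mesoderm markers fell, while 6 of 9 feeder markers were higher and 1 lower. Between E6.5 and E5.5, 6 of 7 streak and mesoderm and 4 of 11 endoderm markers were higher and 2 of 9 feeder markers lower. The part of these markers in the differences was not tested. E7.5 lay on another slide and scan day than E6.5, so stage and slide cannot be told apart between these 2 groups, whereas E6.5 and E5.5 shared a slide.

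EpiSC lines were then compared with each stage, as 5 line means against 2 arrays of a stage, in 1 fit whose 3 contrasts share the same line means. Against E7.5 ectoderm, Six3 and Lhx5 were lower in EpiSCs, and the other 4 genes were not called. Six3 ranged over -5.29 to -1.43 on the EpiSC arrays, with a median of -3.06, against 1.39 and 0.70 at E7.5 (-4.14 ± 0.60, adjusted p = 0.00129). Lhx5 ranged over -5.75 to -0.24, with a median of -1.58, against 2.06 and 1.94 at E7.5 (-4.40 ± 1.18, adjusted p = 0.0216). No EpiSC array reached the E7.5 level of either gene. Hesx1 missed the threshold (-4.12 ± 1.56, adjusted p = 0.0756), with 129C1 overlapping E7.5, and it was called without 129C1 (-5.09, adjusted p = 0.0107) and with normexp (-2.23, adjusted p = 0.0335). Rax was called higher without Wt1 (1.68, adjusted p = 0.0437). In this contrast 2593 of 14750 genes (17.6%) were called, 11.4% higher and 6.16% lower. Lhx5 lost its call with slide as a random block (adjusted p = 0.0698) and without E7.5 replicate 1 (0.122) or replicate 2 (0.109).

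Against the earlier stages 1 of the 6 genes was called each time. Rax was higher in EpiSCs than in E5.5 epiblast (-2.80 to 1.47 on EpiSC arrays, against -2.77 and -2.85; 2.22 ± 0.75, adjusted p = 0.0412), where 3550 of 14750 genes (24.1%) were called, 14.7% higher and 9.39% lower. Pax6 was at least 2.24-fold higher than in E6.5 epiblast (adjusted p = 0.0353), where 3238 of 14750 genes (22.0%) were called, 12.9% higher and 9.06% lower. Pax6 was well above background on 5 of 10 EpiSC arrays, all of them from Wnt-inhibitor lines. With slide as a random block neither was called (adjusted p = 0.108 for Rax and 0.101 for Pax6), nor with normexp (1.17 for Rax and 0.79 for Pax6). The Rax call ended in 6 of 17 cases of leaving out 1 array or line (Wt1 replicate 2, 129Ba2 replicate 2, either E5.5 array, or lines 129Ba2 or BNa17), and the Pax6 call in 5 of 17 (either E6.5 array, or any of the 3 Wnt-inhibitor lines). Without line 129C1, Lhx2, Lhx5 and Pax6 were also called against E5.5, and Lhx2 against E6.5. Six3 was also called against E5.5 without E5.5 replicate 2, Wt1 replicate 1, 129Ba2 replicate 1, BNa17 replicate 1, or lines Wt1 or 129Ba2. Feeder markers were higher in EpiSCs for 9 of 9 against E5.5, 9 of 9 against E6.5 and 8 of 9 against E7.5. Visceral endoderm markers were lower for 7 of 8 against E5.5, whose 2 arrays were far apart in these markers, and 6 of 8 against E6.5. Streak and mesoderm markers were lower for 1 of 7 against E5.5, 5 of 7 against E6.5 and 3 of 7 against E7.5. The part of these markers was not tested, and since no stage shared a scan day with the lines, scan day cannot be told apart from them.

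**Figure D4:**
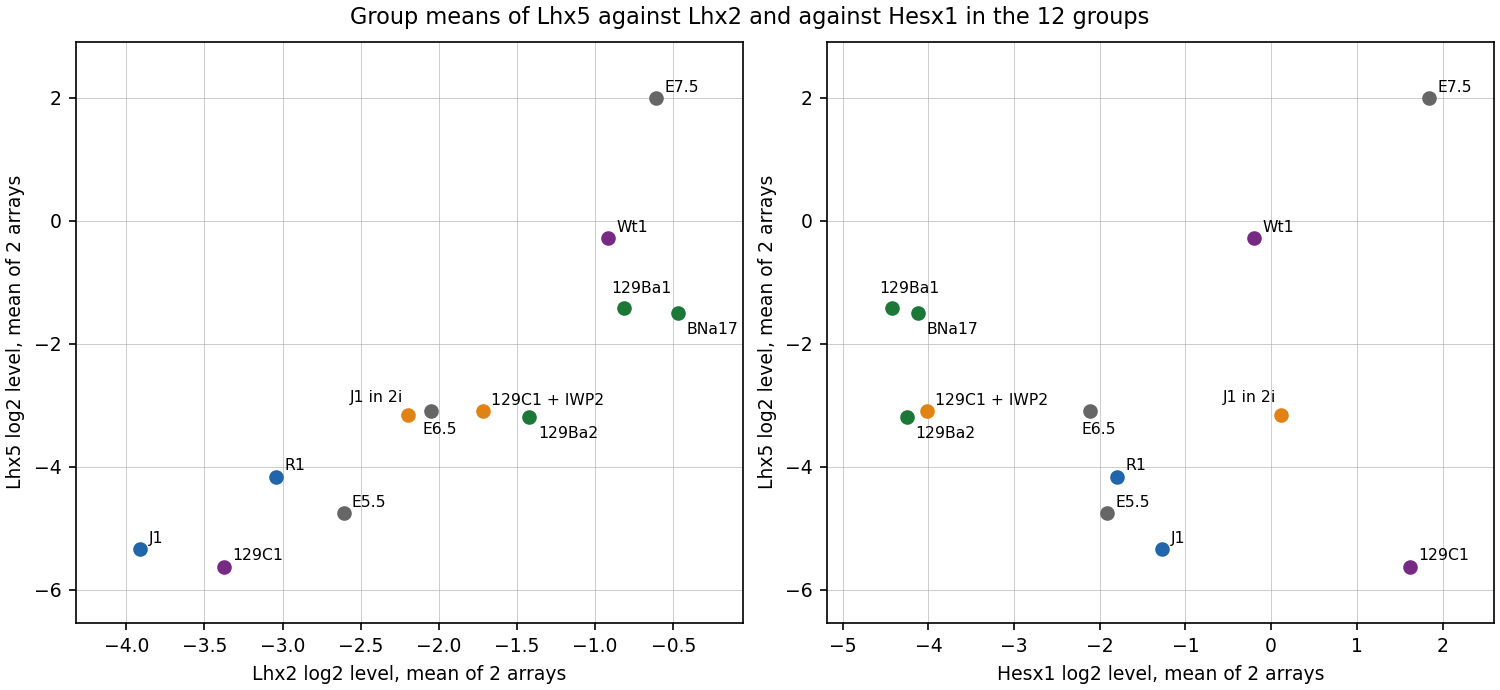
Mean log2 level of Lhx5 (y axis) against that of Lhx2 (left) and of Hesx1 (right), each point being the mean of 2 arrays of 1 of 12 groups, coloured as in the plot of all 6 genes. Lhx5 and Lhx2 follow one another from J1 and 129C1 at the low end to E7.5 and Wt1 at the high end, whereas Lhx5 and Hesx1 share only their maximum at E7.5.

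Among the 15 pairs of members, Lhx2 and Lhx5 had the most similar pattern over the 12 group means (Pearson r = 0.87, Spearman rho = 0.90), with r = 0.92 without E7.5 and r = 0.92 over the 6 EpiSC groups. Hesx1 and Pax6 ran opposite to each other, with r = -0.57 over 12 groups and -0.93 over the 6 EpiSC groups. Among those EpiSC groups, Hesx1 was below detection in 129Ba1, 129Ba2 and BNa17, and Pax6 in Wt1 and untreated 129C1. In treated 129C1 each was well above background on 1 array. The r of -0.93 therefore rests on groups in which 1 of these genes was partly or wholly below detection. Rax and Lhx5 had r = 0.03 over all groups and r = -0.84 over the EpiSC groups. These are descriptions of groups that share lines and slides, and several values lie below detection.

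Beyond the members, the profile most like that of a gene was sought among 3014 genes detected on both arrays of at least 2 groups. Hesx1 was most like Shisa2 (r = 0.92 over 12 groups), of a family of endoplasmic reticulum proteins that hold back Wnt and FGF receptors, as described in the frog embryo. Shisa2 measured 2.59 and 2.08 at E7.5, -0.61 and -0.13 in IWP2-treated 129C1, and 2.00 and 1.90 in untreated 129C1. Six3 was most like its divergent noncoding neighbour Six3os1 (r = 0.88) and Greb1l (r = 0.88). Lhx2 was most like Fam181b (r = 0.93), and Sox1 was among its 5 nearest genes (r = 0.87). Lhx5 was most like Slc32a1, the vesicular transporter of inhibitory transmitters (r = 0.90), and Hoxb2 was in its list too (r = 0.86). Rax was most like H2-Ab1, a class II histocompatibility gene (r = 0.92), and Pax6 like Dusp14 (r = 0.87).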

How the data were processed

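Cy3-labelled RNA was measured on single-colour Agilent arrays, 2 per group. Signals came from Agilent Feature Extraction 10.5.1.1, per the submitters' processing notes. The authors deposited a processed signal for each spot, an intensity on a linear scale after background subtraction, per the file headers, with flags such as gIsWellAboveBG. A value table that the authors deposited holds log2 values; set against the scanner signal, it matched the 75th percentile scaling with each probe's median over the 24 arrays subtracted.

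Here, flagged outliers were left out (168 probes), spots of a probe were averaged, and log2 signal minus the array's 75th percentile was taken over distinct probes. A gene was represented by its probe with the highest mean over all arrays. Probes were named through their RefSeq accession, which named 27235 of 55681 probes. limma 3.58.1 in R 4.3.3 was fitted to all genes that were well above background on both arrays of any group entering the fit. IWP2, 2i, stage steps and Wt1 against 129C1 used all 24 arrays as 12 groups, and the comparisons of line kinds used line means. Wnt-inhibitor lines set against 129C1 within 1 slide used single arrays. Calls needed a two-sided Benjamini-Hochberg adjusted p below 0.05 and a change of at least 2-fold. All adjusted p-values for genes are from limma, and errors are standard errors. Where a side had no array well above background, "at least" folds used, per array, the larger of the lowest signal well above background and the probe's own. These folds are not lower confidence limits, and the interval of a fit can reach below them. The number of arrays limits the precision. Fits were tested on simulated data.

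The 6 members and all gene lists were chosen with earlier results of these data known. All members are named in every comparison, as are Otx2, Sox1, Gbx2, Cer1, Foxa2, Hhex and similar genes where they bear on a result, and up to 4 called genes per list by size; some genes that this rule names are not reported here. Likeness was Pearson r over 12 group means among genes whose means had an SD of at least 1. Alternatives were normexp background correction (on the median signal, since the files used here hold no mean signal; offset 50), quantile normalization, the authors' values, other filters, the mean of all probes, a trend and robust variance model, no fold minimum, a replicate block, slide as a random block or within 1 slide, only the arrays compared, and leaving out each array or line. A lone remaining sample was assumed to vary like the other groups. Replicate numbers do not pair the samples: deviations of same-numbered arrays correlated at -0.34 to 0.42 between groups, over 0.1 in 17 of 66 pairs.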

Additional observations from a re-analysis of the deposited data

How the results depend on the processing

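Members called in each comparison changed as follows. With normexp and an offset of 50, which shrinks differences between dim probes, 2 were called for IWP2 (5 in the reported fit), 1 for Wnt-inhibitor against original-protocol lines (2), 0 for EpiSC against mESC lines (1), 0 for 2i (4), 0 for E6.5 against E5.5 (1), 3 for E7.5 against E6.5 (5), 0 for EpiSC lines against E5.5 (1) and 0 against E6.5 (1). Calls over all genes tested fell with normexp too, to 1.8% for IWP2 (3.88% in the reported fit) and 1.35% for the 2 kinds of line (1.58%). They fell to 13.6% for EpiSC against mESC lines (25.1%) and 4.06% for 2i (13%). For the stage steps they were 1.99% (4.86%) and 5.76% (14.9%), and for EpiSC lines 11.4% against E5.5 (24.1%) and 11.9% against E6.5 (22%). The Hesx1 and Rax calls under IWP2, and the Hesx1, Six3 and Lhx5 calls at E7.5, were kept under normexp. With quantile normalization 0 were called for EpiSC against mESC lines, for E6.5 against E5.5 and for EpiSC lines against E6.5. Of all genes tested, 22.5%, 4.6% and 20.1% were called there. With no filter on dim probes 0 were called for E6.5 against E5.5 (3.16% of all genes tested) and for EpiSC lines against E5.5 (17.7%). The stricter filter, which needs every array of 1 side well above background, left 1 for the 2 kinds of line and 0 for EpiSC lines against E6.5. In both, the filter took Pax6 out of testing. Of all genes tested there, 2.08% and 19.8% were called. The mean of all probes left 1 for the 2 kinds of line (1.59% of all genes tested) and 0 for E6.5 against E5.5 (4.46%). The trend and robust model gave 2 for EpiSC lines against E5.5 (24.1% of all genes tested). Slide as a random block gave 0 for EpiSC lines against E5.5 (20.6% of all genes tested) and E6.5 (17.9%) and 1 against E7.5 (13.5%). It was not run for the comparisons on single arrays, where each group lies within 1 slide, nor for the 2 kinds of line. Only the arrays compared gave 3 for IWP2 (3.92% of all genes tested). Within 1 slide, 3 were called for treated 129C1 against Wt1, where the signs of Rax (1.35), Lhx2 (-0.81) and Lhx5 (-2.81) reversed. Within the other slide, 5 were called for Wnt-inhibitor lines against 129C1, where Rax reversed (-1.74). Both fits used single arrays and set the group against another line. Of all genes tested, 13.9% were called against Wt1 and 11.2% against 129C1. The cause of the other changes was not tested.

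Leaving out 1 array or line gave 3 to 5 called members for IWP2, 0 to 2 for the 2 kinds of line, 3 to 5 for Wt1 against 129C1, 0 to 3 for EpiSC against mESC lines, 2 to 3 for 2i, 0 to 1 for E6.5 against E5.5, 5 in every case for E7.5 against E6.5, and, for EpiSC lines, 0 to 4 against E5.5, 0 to 2 against E6.5 and 1 to 3 against E7.5. The replicate block, with numbers that pair nothing, left 5 for IWP2, 4 for Wt1 against 129C1, 4 for 2i and 5 for E7.5 against E6.5, and 0 for E6.5 against E5.5 (Lhx5 adjusted p = 0.0553). Over all single-gene values under alternatives, 1057 of 1185 kept direction and side of the threshold, 67 lost a call, 25 gained one and 36 changed sign. Of those 36, 32 were called in neither setting, and 2 were called with the changed sign (Lhx5 against Wt1 and Rax against 129C1, within 1 slide). Uncalled differences changed sign with normexp for the 2 kinds of line (Rax -0.17, Lhx5 -0.081), EpiSC against mESC lines (Hesx1 0.14, Pax6 0.019), E6.5 against E5.5 (Six3 -0.23) and EpiSC lines against E5.5 (Hesx1 0.41) and E6.5 (Hesx1 0.54), with quantile normalization for 2i (Six3 -0.10, Rax -0.11), and with slide as a random block for EpiSC lines against E6.5 (Hesx1 0.062). Leaving out 1 array or line, uncalled differences crossed 0 for the 2 kinds of line (Six3 -0.18 to 0.87, Rax -1.74 to 1.88, Lhx5 -1.76 to 3.58), EpiSC against mESC lines (Pax6 -0.80 to 0.20), 2i (Six3 -0.28 to 0.96, Rax -0.23 to 0.79), E6.5 against E5.5 (Hesx1 -1.02 to 0.63, Six3 -0.30 to 1.57), and EpiSC lines against E5.5 (Hesx1 -1.33 to 0.47) and E6.5 (Hesx1 -1.14 to 0.38). Signal over background limits Six3, Pax6 and Lhx5 most, each below detection in several groups.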

Other observations

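Six6, a factor of the eye and hypothalamus, was detected in EpiSC lines but not at E7.5. Of the 10 EpiSC arrays, Six6 was detected on 8, against 0 of 2 at E7.5 and 0 of 4 in mESCs. It was at least 1.94-fold higher in EpiSC lines than at E7.5 (limma, adjusted p = 0.0239), a bound under 2-fold. Of 18 genes of the other forebrain list tested in that contrast, 2 were higher and 3 lower in EpiSC lines. Over all genes 11.4% were called higher and 6.16% lower. Against mESCs the Six6 difference was not called (adjusted p = 0.0534).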
